A study of Mus musculus with 20 samples.

Results

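Clca1, Clca2, Clca3a1 and Clca3a2 are the 4 genes of the mouse calcium-activated chloride channel regulator (Clca) family that had a row among the 16669 genes of the expression table, and all 4 passed the filter on low values that left 16461 genes for testing. The family was chosen for Clca1, a known IL-13 target of mucous epithelium, with its log2 CPM in these libraries in view, so every comparison of Clca1 is given as a description without a test. The other 3 were taken with it as family members by name. Bulk RNA-seq was done on ear pinnae of mice after an intradermal injection into the right ear of 10 µl of PBS holding 0.1 µg/µl of IL-4, IL-13 or IL-31, or of 10 µl of PBS alone. Each of the 4 groups had 5 libraries. The sources used here name neither strain, sex and age nor the interval between injection and harvest. They also do not tie a library to an animal of its own, so the p-values reflect variation among libraries that may be technical.

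CLCA proteins were named for the calcium-dependent chloride currents that follow their expression in cultured cells. They are now regarded as regulators rather than channels: human CLCA1 is a secreted metalloprotease that cleaves itself and holds the chloride channel TMEM16A (gene Ano1) at the cell surface. In airway and gut, Clca1 is made by mucus-secreting goblet cells and is induced by IL-13 through STAT6. Human CLCA2 is a membrane protein of keratinocytes and other squamous or basal epithelial cells and a target of p53, and mouse Clca3a1 protein has been described on lymphatic endothelium.

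The family lies in one run on the minus strand of chromosome 3 (GRCm38, GENCODE release M21). Clca3a1 spans 144729677 to 144760977, Clca3a2 144796559 to 144819494, Clca1 145003817 to 145032776 and Clca2 145070263 to 145099443. All 4 are protein-coding genes with 14 exons in the main transcript. The run of 8 annotated family genes covers 370 kb, and Clca3b, Clca4a, Clca4b and Clca4c-ps within it were not analysed here. Clca3a1 and Clca3a2 have coding sequences of 2706 bases each that differ at 79 positions, an identity of 97.1%. Clca1 and Clca2 shared 56.9% of aligned coding bases with each other, and the identities of either with Clca3a1 or Clca3a2 were 60.8 to 62.8%. Of all windows of 50 bases in the Clca3a1 transcript 23.6% also occurred in the Clca3a2 transcript, and 22.7% the other way round, while Clca1 and Clca2 shared no such window with any other member. Reads from those windows cannot be told apart, so Clca3a1 and Clca3a2 values are uncertain to the extent that the authors' counting split or dropped them. Clca3b, with 86.7% coding identity to both, shared 3.7% of the windows of Clca3a1 and 4.2% of those of Clca3a2.

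The longest run common to the Clca3a1 and Clca3a2 transcripts is shown because any read inside it fits both genes. It has 242 bases and covers coding positions 902 to 1143, counted from the start codon of Clca3a1.
Shared run: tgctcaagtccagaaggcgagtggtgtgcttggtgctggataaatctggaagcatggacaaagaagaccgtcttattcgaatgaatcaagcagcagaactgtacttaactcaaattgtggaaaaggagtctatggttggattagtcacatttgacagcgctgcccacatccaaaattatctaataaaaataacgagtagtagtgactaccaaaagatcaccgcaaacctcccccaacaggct
The coding stretch of 120 bases in which both genes differ most, at positions 499 to 618, is shown because reads across it do separate them. Its 15 differing bases are in capitals.
Clca3a1: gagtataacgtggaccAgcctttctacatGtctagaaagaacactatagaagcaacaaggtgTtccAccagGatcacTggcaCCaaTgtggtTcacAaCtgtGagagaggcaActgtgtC
Clca3a2: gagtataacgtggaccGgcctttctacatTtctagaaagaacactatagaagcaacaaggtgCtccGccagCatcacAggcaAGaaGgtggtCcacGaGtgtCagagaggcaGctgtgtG

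RefSeq promoter sequences (GRCm38.p6) from 250 bases before to 50 bases after the gene start are given for Clca2 and Clca3a1, 5′ to 3′ on the minus strand. They are shown because these 2 members differed in the fit of all 20 libraries, where Clca2 was called higher after each cytokine and Clca3a1 was not called. Other fits given below changed calls of both. The Clca3a1 window reaches upstream of 144760977, the 5′ end of its GENCODE gene on the minus strand. The whole Clca2 window lies inside the GENCODE span of its gene, which reaches 145099443. It is thus not upstream of that gene model, and the 2 windows are not like regions. They were identical at 45.6% of aligned bases, with no common run longer than 7 bases. Capitals mark matches to 6 motifs searched on both strands: STAT sites with 3 or 4 bases between the half-sites (TTCNNNGAA for the first), AP-1 (TGANTCA), C/EBP (TTGCNNAA), grainyhead-like (AACNGGTT) and a TATA box (TATAAA).
Clca2, chr3:145099057-145099356: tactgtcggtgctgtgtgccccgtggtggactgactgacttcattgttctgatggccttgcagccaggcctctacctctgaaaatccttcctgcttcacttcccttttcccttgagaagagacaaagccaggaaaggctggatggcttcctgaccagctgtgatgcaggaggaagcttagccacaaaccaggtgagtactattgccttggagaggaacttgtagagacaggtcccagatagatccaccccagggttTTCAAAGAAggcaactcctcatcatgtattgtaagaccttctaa
Clca3a1, chr3:144760928-144761227: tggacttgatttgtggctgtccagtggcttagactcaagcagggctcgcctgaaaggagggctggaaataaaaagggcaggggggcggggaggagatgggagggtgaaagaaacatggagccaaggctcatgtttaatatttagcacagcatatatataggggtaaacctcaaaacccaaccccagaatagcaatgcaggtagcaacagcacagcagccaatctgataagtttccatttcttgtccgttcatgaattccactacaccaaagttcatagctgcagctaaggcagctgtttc
The Clca2 window held 1 STAT match with 3 bases between, at positions 257 to 265. That is past the RefSeq start and, like the whole window, inside the GENCODE gene. Of all 32851 promoter windows 8.3% hold that motif. No match was found in the Clca3a1 window. No window of Clca1 or Clca3a2 was searched. The genes shown were picked by their calls, so no contrast between members is read from the match. The other motifs occur in 6.95% (STAT, 4 bases between), 7.81% (AP-1), 10.8% (C/EBP), 2.09% (grainyhead-like) and 13.6% (TATA box) of windows.

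Effective library sizes ranged from 6.11 to 23.73 M reads, and Clca1, the lowest member, rested on about 16 to 139 reads per library. Keratinocyte markers stood at the levels of skin, with Krt5 at 13.32 to 13.59 and Krt10 at 12.01 to 14.06 mean log2 CPM in the 4 groups (CPM, read counts scaled to a common library size). The PBS libraries were not alike: the summed level of 51 suprabasal and cornifying keratinocyte genes, 50 of them tested, took 4.38 to 7.65% of all CPM in IL-4, 4.48 to 10.6% in IL-13, 6.23 to 9.45% in IL-31 and 1.48 to 6.15% in PBS libraries. The score of that list, its mean log2 CPM after centring each gene, was lowest in PBS library 3 (-1.83), PBS library 2 (-1.66) and PBS library 1 (-0.83). PBS libraries 4 (-0.07) and 5 (0.47) scored within the range of the cytokine libraries. That did not hold for every list. Scored in the same way, skeletal muscle genes stood at 1.458 and 1.61 in PBS libraries 4 and 5. Their highest cytokine score was 1.313, in IL-31 library 2. Neutrophil genes scored 3.115 in PBS library 5, above their highest cytokine score (2.976, IL-13 library 1). The same 5 PBS libraries serve as the control in all 3 comparisons with PBS, so those comparisons are not independent, and the members' differences from PBS are also given without PBS libraries 1, 2 and 3. In tissue like this, fewer cells of a type and less RNA per cell cannot be told apart.

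Per length, the 4 members differed widely in level. CPM per kb of main transcript had a median over the 20 libraries of 95.9 for Clca3a2 and 30.2 for Clca2, against 3.74 for Clca3a1 and 1.00 for Clca1. Their ranges over libraries were 25.3 to 228, 14.1 to 42.4, 1.85 to 7.10 and 0.358 to 2.76 CPM per kb, in the same order. Clca3a2 was the most abundant of them in every group, at 91.9 CPM per kb in IL-4, 127 in IL-13, 108 in IL-31 and 63.6 in PBS libraries on average. Clca1, the goblet cell gene, averaged 1.03 CPM per kb in IL-4, 1.62 in IL-13, 1.17 in IL-31 and 0.585 in PBS libraries. By mean log2 CPM, which is not scaled by length, Clca3a2 lay above 97.8% of tested genes and Clca1 above 22.8%.

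**Figure D1:**
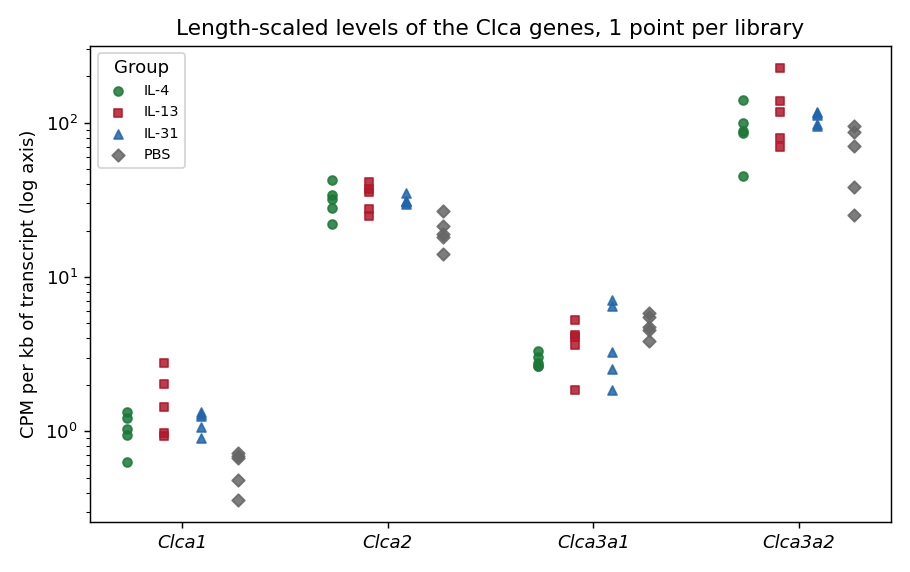
CPM per kb of main transcript (log axis) for each Clca gene, 1 point per library, in the IL-4, IL-13, IL-31 and PBS groups of 5 libraries. Clca3a2 (median 95.9) and Clca2 (30.2) lie above Clca3a1 (3.74) and Clca1 (1.00) in every library.

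Clca1 was higher in nearly every cytokine library than in any PBS library. It had 1.31, 1.86, 1.97, 2.20 and 2.34 log2 CPM in IL-4 libraries 1 to 5. IL-13 libraries 1 to 5 had 1.89, 1.83, 2.92, 3.36 and 2.43 log2 CPM of Clca1, and IL-31 libraries 1 to 5 had 1.80, 2.28, 2.25, 2.33 and 2.02. PBS libraries 1 to 5 had 0.93, 1.41, 0.55, 1.38 and 1.49 log2 CPM. Of the 15 cytokine libraries, all but IL-4 library 1 exceeded the highest PBS library, and the highest values, in IL-13 libraries 3 and 4, were also the ones that set the wide IL-13 spread. The groups ranked IL-13 (2.49 ± 0.66), IL-31 (2.14 ± 0.22), IL-4 (1.94 ± 0.40) and PBS (1.15 ± 0.40 log2 CPM; mean ± SD, n = 5 each). The IL-13, IL-31 and IL-4 ranges overlap, so neighbours in that order among the cytokines do not stand apart beyond their spread. Relative to PBS the log2 difference of Clca1 was 1.33 ± 0.28 (SE) in IL-13, 0.98 ± 0.28 in IL-31 and 0.78 ± 0.28 in IL-4, which are 2.51-fold, 1.98-fold and 1.72-fold. Set against PBS libraries 4 and 5 alone, these differences were 1.05 ± 0.35, 0.70 ± 0.35 and 0.50 ± 0.35. With the epidermal barrier score as a covariate they were 0.92, 0.64 and 0.48. The IL-13 and IL-31 libraries did not overlap the PBS libraries, as held in the higher direction for 2.52% and 2.93% of all tested genes, but Clca1 was picked on these values and nothing is read from that.

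**Figure D2:**
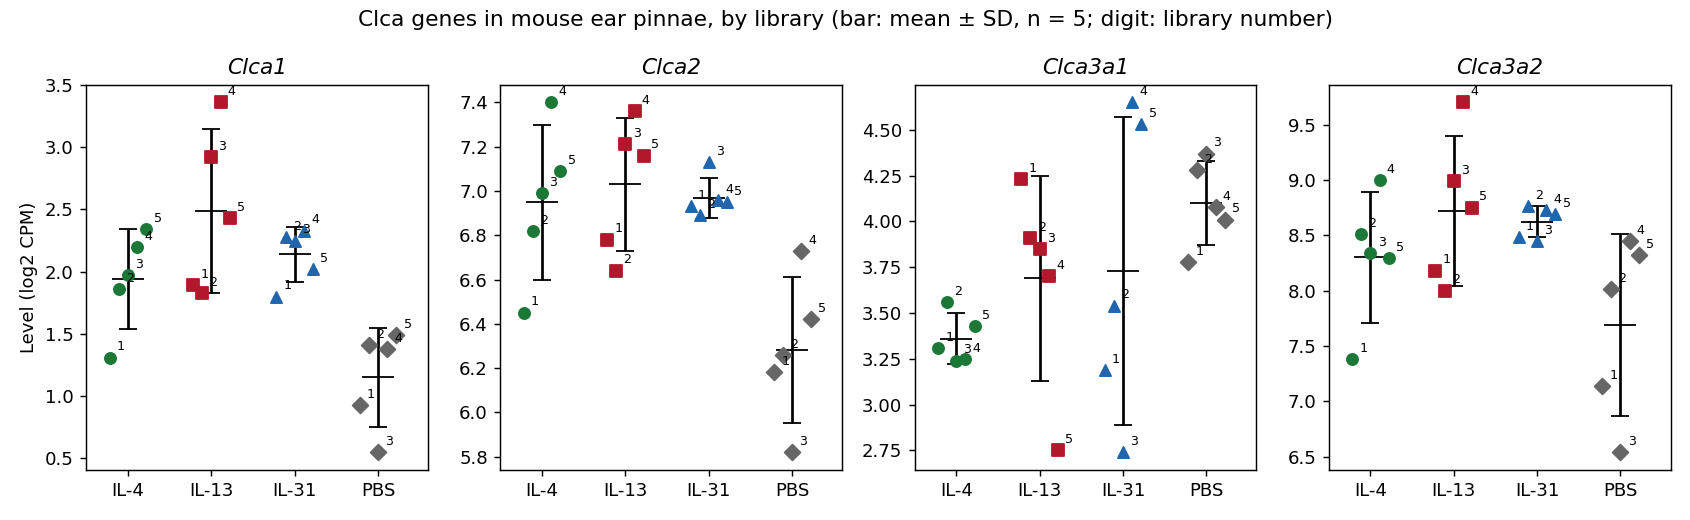
Level in log2 CPM of each Clca gene in every library of the IL-4, IL-13, IL-31 and PBS groups, with the library number beside each point and bars for mean ± SD (n = 5). Clca1, Clca2 and Clca3a2 are lowest in PBS library 3 (0.55, 5.82 and 6.54), while Clca3a1 is at 3.78 to 4.37 in PBS and at 3.24 to 3.56 in IL-4 libraries.

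Clca2, the keratinocyte member in human skin, rose after each of the 3 cytokines. It had 6.45, 6.82, 6.99, 7.40 and 7.09 log2 CPM in IL-4 libraries 1 to 5, and 6.78, 6.64, 7.21, 7.36 and 7.16 in IL-13 libraries. IL-31 libraries 1 to 5 had 6.93, 6.89, 7.13, 6.96 and 6.95 log2 CPM of Clca2, against 6.18, 6.26, 5.82, 6.73 and 6.42 in PBS libraries 1 to 5. The IL-31 libraries lay close together and above every PBS library, whereas 1 library each of IL-4 and IL-13 fell below PBS library 4. Of all tested genes 2.93% likewise had every IL-31 library above every PBS library. Clca2 rose by 0.67 ± 0.17 in IL-4 (log2 difference ± SE, 1.59-fold, limma adjusted p = 0.0113), by 0.75 ± 0.17 in IL-13 (1.68-fold, adjusted p = 0.0056) and by 0.69 ± 0.17 in IL-31 (1.62-fold, adjusted p = 0.0261). Across all tested genes 17.8% were called in IL-4 (8.22% higher), 19.7% in IL-13 (9.94% higher) and 6.38% in IL-31 (5.18% higher). The IL-31 share rested on single libraries: its 1050 calls fell to 0 without IL-31 library 3, IL-31 library 5 or PBS library 2, and there were 3029 without PBS library 5. With PBS libraries 1, 2 and 3 left out the differences were 0.38, 0.46 and 0.40 and did not pass (adjusted p = 0.268, 0.227 and 0.673), and with the epidermal barrier score as a covariate they were 0.41, 0.40 and 0.40 (adjusted p = 0.0672, 0.141 and 0.233). In a fit of no more than the 10 libraries of a comparison the IL-4 and IL-31 calls were lost (adjusted p = 0.0515 and 0.135). The IL-31 call was also lost without any one of IL-31 libraries 3, 4 and 5 or PBS libraries 1, 2 and 3, with adjusted p of 0.0507 to 0.0763.

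Clca3a2, the most abundant member, was higher on average after each cytokine but passed the test in IL-13 alone. It had 7.38, 8.51, 8.34, 9.0 and 8.29 log2 CPM in IL-4 libraries 1 to 5, and 8.18, 8.0, 8.99, 9.70 and 8.75 in IL-13 libraries. IL-31 libraries 1 to 5 had 8.48, 8.76, 8.45, 8.73 and 8.69 log2 CPM of Clca3a2, against 7.14, 8.01, 6.54, 8.45 and 8.32 in PBS libraries. PBS libraries 1 and 3 lay lowest, and PBS libraries 4 and 5 lay within the IL-4 and IL-13 ranges and just below the IL-31 range. An IL-31 range above every PBS library was shared by 2.93% of all tested genes. Clca3a2 rose by 1.03 ± 0.35 in IL-13 (2.04-fold, limma adjusted p = 0.0448), where 19.7% of all tested genes were called (9.94% higher). Its differences were 0.93 ± 0.35 in IL-31 (adjusted p = 0.115) and 0.61 ± 0.35 in IL-4 (adjusted p = 0.251). Leaving out PBS libraries 1, 2 and 3 gave 0.34 in IL-13 (adjusted p = 0.679), 0.24 in IL-31 (adjusted p = 0.885) and -0.08 in IL-4 (adjusted p = 0.911), and the barrier score as a covariate gave 0.36 in IL-13 (adjusted p = 0.59). The IL-13 call lies close to the threshold: it was lost without any one of IL-4 libraries 2, 3 and 5, IL-13 libraries 3, 4 and 5, the 5 IL-31 libraries or PBS libraries 1, 2 and 3, with adjusted p of 0.0511 to 0.13. Without PBS library 4 or 5 the IL-31 difference passed (1.12 and 1.09, adjusted p = 0.0499 and 0.0448).

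Clca3a1, the near-identical paralog, did not follow the other members and passed no test. It had 3.31, 3.56, 3.24, 3.25 and 3.43 log2 CPM in IL-4 libraries 1 to 5, and 4.23, 3.91, 3.85, 3.70 and 2.75 in IL-13 libraries. IL-31 libraries 1 to 5 had 3.19, 3.54, 2.74, 4.65 and 4.53 log2 CPM of Clca3a1, against 3.78, 4.28, 4.37, 4.08 and 4.01 in PBS libraries. All 5 IL-4 libraries lay below every PBS library, an absence of overlap in the lower direction that 5.89% of all tested genes shared, while the IL-13 libraries reached from within the PBS range to below it and the IL-31 libraries lay on both sides of it. The difference from PBS was -0.75 ± 0.30 in IL-4 (log2, 0.596-fold, limma adjusted p = 0.0968, unadjusted p = 0.0237), -0.41 ± 0.30 in IL-13 (adjusted p = 0.355) and -0.37 ± 0.30 in IL-31 (adjusted p = 0.457). With only the 10 IL-4 and PBS libraries in the fit, where the wide IL-13 and IL-31 spreads do not enter, the IL-4 difference passed (adjusted p = 0.0109). Against PBS libraries 4 and 5 alone it was -0.69 (adjusted p = 0.333), close to its value against all 5. Blood and lymphatic endothelial genes, listed because of the reported site of Clca3a1, had 7 of 24 members lower and none higher in IL-4, 11 lower in IL-13 and none called in IL-31, where 9.63%, 9.8% and 1.2% of all tested genes were lower. Leaving out PBS libraries 1, 2 and 3 gave 3, 2 and 0 lower. Their summed level was 213 to 393 CPM in IL-4, 218 to 377 in IL-13, 366 to 489 in IL-31 and 366 to 608 in PBS libraries, and their part in the Clca3a1 values was not tested. The lymphatic markers Lyve1 and Prox1 averaged 4.19 and 1.57 log2 CPM in IL-4, 4.09 and 1.70 in IL-13, 4.48 and 2.15 in IL-31 and 4.32 and 2.26 in PBS libraries. Over the 20 libraries the endothelial list score correlated with Clca3a1 at 0.32. Scores of skeletal muscle (0.49), eosinophil and mast cell (0.41) and hair follicle genes (0.34) correlated with it more. The likeness was thus not particular to endothelium.

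**Figure D3:**
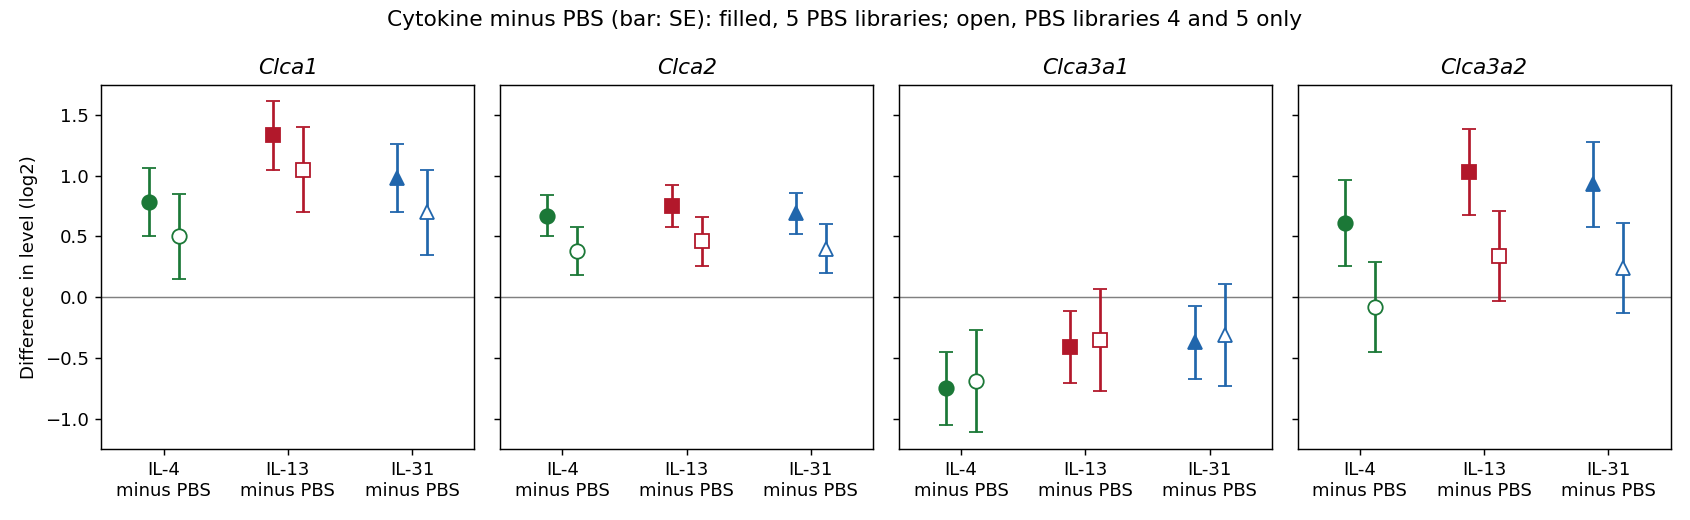
Log2 difference in level (cytokine minus PBS) with its SE for each Clca gene, against all 5 PBS libraries (filled) and against PBS libraries 4 and 5 only (open). Leaving out PBS libraries 1, 2 and 3 takes Clca3a2 in IL-4 to -0.08 and Clca1 to 0.50 in IL-4, 1.05 in IL-13 and 0.70 in IL-31, while Clca3a1 stays below 0.

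None of Clca2, Clca3a1 and Clca3a2 passed a test between cytokines, and in the fit of all 20 libraries no tested gene did (0% called in each of the 3 comparisons by limma; 4.03%, 7.29% and 10.6% of genes had an unadjusted p under 0.05 in IL-13 minus IL-4, IL-13 minus IL-31 and IL-4 minus IL-31). That count rested on IL-31 library 3, without which 297 genes were called in IL-13 minus IL-31 and 304 in IL-4 minus IL-31. The Clca2 difference was 0.08 for IL-13 minus IL-4 (95% interval -0.27 to 0.44), 0.06 for IL-13 minus IL-31 (-0.30 to 0.41) and -0.02 for IL-4 minus IL-31 (-0.38 to 0.33). The intervals for Clca3a2 were wider, at -0.31 to 1.15, -0.63 to 0.83 and -1.05 to 0.41 around differences of 0.42, 0.10 and -0.32. Clca3a1 differed by 0.33 (-0.30 to 0.97), -0.04 (-0.68 to 0.59) and -0.37 (-1.01 to 0.26) in the same 3 comparisons. Clca1, described without a test, differed by 0.55 ± 0.28 for IL-13 minus IL-4, 0.35 ± 0.28 for IL-13 minus IL-31 and -0.20 ± 0.28 for IL-4 minus IL-31 (log2, SE). The intervals allow a Clca3a2 difference of over 2-fold between IL-13 and IL-4, so a like response to the cytokines is not shown.

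Library by library, Clca1, Clca2 and Clca3a2 went up and down together. The correlation of log2 CPM over the 20 libraries was 0.90 for Clca1 with Clca2 (Spearman 0.89) and 0.90 for Clca1 with Clca3a2 (Spearman 0.79), given as a description because libraries of a group share their treatment. With each group's mean removed, the same values were 0.83 and 0.88, so libraries of the same group differed in parallel too. Among 16460 other tested genes, Clca2 and Clca3a2 held the first and the second place in likeness to Clca1. In likeness to Clca3a2, Clca1 held place 4 and Clca2 place 6. In likeness to Clca2, Clca1 held only place 118 and Clca3a2 place 187, so the likeness is not particular to the family. Clca3a2 and Clca2 correlated at 0.89 (0.88 within groups). Leaving out PBS libraries 1 and 3, the libraries farthest from the median of Clca2 and of Clca3a2, gave 0.83 for Clca1 with Clca2, 0.83 for Clca1 with Clca3a2 and 0.78 for Clca2 with Clca3a2. Clca3a1 correlated with Clca3a2 at -0.19 (-0.04 within groups), with Clca1 at -0.27 and with Clca2 at -0.45, so its values did not track those of the paralog with which it shares sequence.

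**Figure D4:**
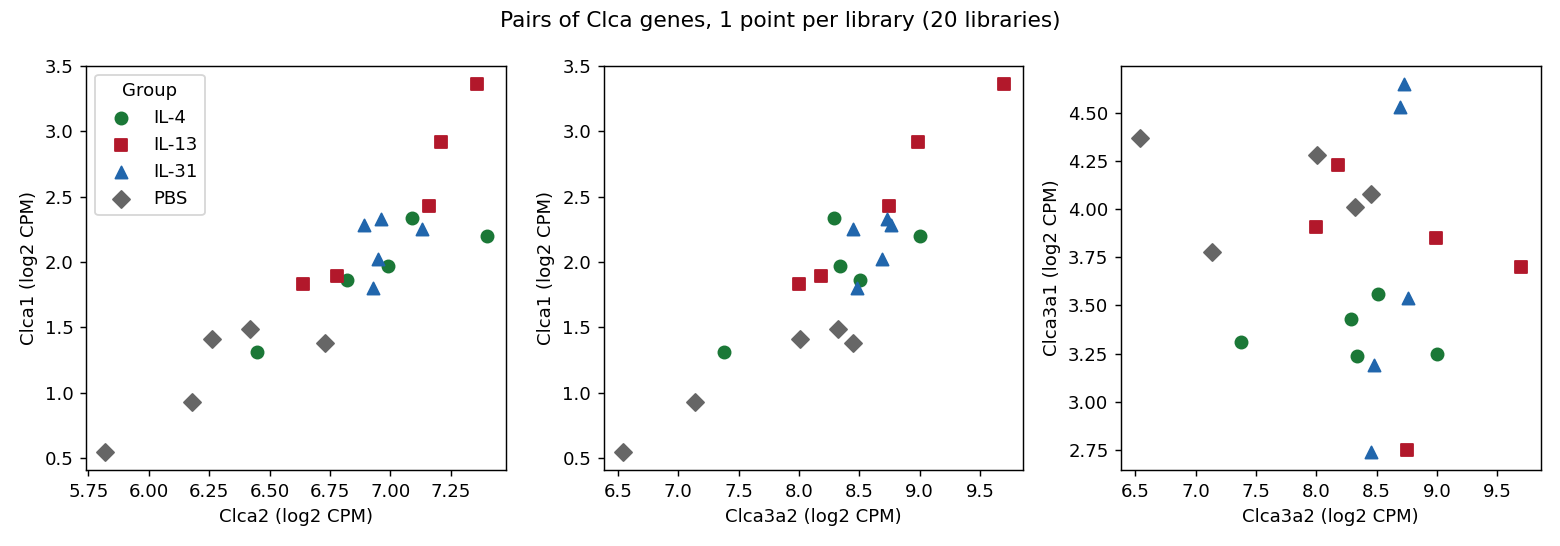
Log2 CPM of pairs of Clca genes, 1 point per library of the IL-4, IL-13, IL-31 and PBS groups. Clca1 goes with Clca2 and with Clca3a2 (r = 0.90 for both), and Clca3a1 does not go with Clca3a2 (r = -0.19).

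The genes most like each member, by Pearson correlation over the 20 libraries, differed in kind. For Clca2 they were Ppl (r = 0.96), which encodes periplakin of desmosomes and the cornified envelope, Ptpn13 (0.95), a protein tyrosine phosphatase, Triap1 (0.95), a p53-regulated survival factor, Cgn (0.95), which encodes cingulin of tight junctions, Frmpd1 (0.94) and Daam1 (0.94), a formin. Their values within groups were 0.88 to 0.90. For Clca3a2 they were Fcgbp (0.91), a mucin-like Fc-binding protein secreted with mucus, Fzd10 (0.91), a Wnt receptor, Tmem65 (0.91), Clca1 (0.90), Krt77 (0.89), an epidermal keratin, and Clca2 (0.89). After its 2 relatives, Clca1 was most like Mapkapk3 (0.89), a kinase downstream of p38, Paqr3 (0.88), Ralgapb (0.87) and Vps37c (0.87), an ESCRT subunit. Clca3a1 was most like H19 (0.86), an imprinted noncoding RNA, then Ptx3 (0.75), a pentraxin, Ksr1 (0.75), Vegfd (0.74), a lymphangiogenic growth factor, Osr1 (0.74), a transcription factor of connective tissue, and Col28a1 (0.73), a collagen. H19 differed from PBS by -2.61 in IL-4, -0.85 in IL-13 and -0.63 in IL-31 (log2). These genes were selected for likeness over 16460 candidates, so the values carry no test.

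The epidermal list moved with the same 3 members. Of its 50 tested genes 27 were higher in IL-4, 36 in IL-13 and 28 in IL-31 and none lower, against 8.22%, 9.94% and 5.18% of all tested genes higher. The list medians were 1.05, 1.26 and 1.16, beside -0.02, -0.03 and -0.04 over all tested genes. With PBS libraries 1, 2 and 3 left out the list had 2, 2 and 0 genes higher and medians of 0.06, 0.27 and 0.23. Over the 20 libraries the list score correlated with Clca2 at 0.81, Clca3a2 at 0.73, Clca1 at 0.72 and Clca3a1 at -0.27. This was not particular to the epidermal list: the score of 6 mucous cell genes correlated with Clca2 at 0.88, Clca3a2 at 0.76 and Clca1 at 0.78, that of the basal keratinocyte genes at 0.70, 0.67 and 0.69, and that of the smooth muscle and pericyte genes at -0.80, -0.76 and -0.75. Basal keratinocyte genes, 16 in number, had 5 higher in IL-4 (Trp63 and, named after their values were seen, Lamb3, Dsc3, Dst and Col17a1) and 2 each in IL-13 and IL-31 (Trp63 and Dsc3), with Krt14 at 13.18, 13.56 and 13.18 against 13.13 log2 CPM in PBS. None of these basal genes was called with PBS libraries 1, 2 and 3 left out. Smooth muscle and pericyte genes stood the other way, with summed levels of 427 to 601 CPM in IL-4, 402 to 694 in IL-13, 532 to 837 in IL-31 and 845 to 1270 in PBS libraries, and 4 of 14 tested were lower in IL-4 (none higher) and 4 lower and 1 higher in IL-13. Against PBS libraries 4 and 5 alone 3 and 2 of them were lower. Of all tested genes 9.63% were lower in IL-4, 9.8% in IL-13 and 1.2% in IL-31, to be read beside these counts and those of the lists below. Skeletal muscle genes took 0.075 to 0.555% of CPM in IL-4, 0.165 to 0.611% in IL-13, 0.317 to 1.40% in IL-31 and 1.02 to 2.99% in PBS libraries. Of these 26 genes 25 were lower in IL-4, 24 in IL-13 and none in IL-31, with medians of -2.57, -2.57 and -0.83. With PBS libraries 1, 2 and 3 left out 20, 5 and 0 were lower. Macrophage genes had 11 of 20 lower in IL-4, 8 in IL-13 and none called in IL-31, with medians of -0.99, -0.83 and -0.32, and 10, 5 and 0 were lower with PBS libraries 1, 2 and 3 left out. Their summed level was 387 to 593 CPM in IL-4, 391 to 859 in IL-13, 543 to 912 in IL-31 and 767 to 1730 in PBS libraries. Hair follicle genes had medians of -1.17, -1.39 and -1.52, with 3, 4 and 3 of 12 lower and 1, 1 and 0 higher, and their score correlated with Clca2 at -0.67. No hair follicle or neutrophil gene was called with PBS libraries 1, 2 and 3 left out. Neutrophil genes had medians of -2.6, -1.87 and -1.5, with 1 of 15 lower in IL-4 and no other call, and they varied widely within each group, at 82.4 to 562 CPM in IL-4, 86.0 to 1000 in IL-13, 97.7 to 812 in IL-31 and 98.1 to 2000 summed CPM in PBS. Of 18 sebaceous genes 2 were higher in IL-4, against 9 higher and 1 lower when PBS libraries 1, 2 and 3 were left out, and none of 9 eosinophil and mast cell genes was called. What part these differences in tissue make-up have in the Clca values was not tested. The fits without PBS libraries 1, 2 and 3 and with the barrier score cannot decide it. Those libraries have the lowest PBS scores, and the score goes with Clca1, Clca2 and Clca3a2 and itself differs between cytokine and PBS groups.

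**Figure D5:**
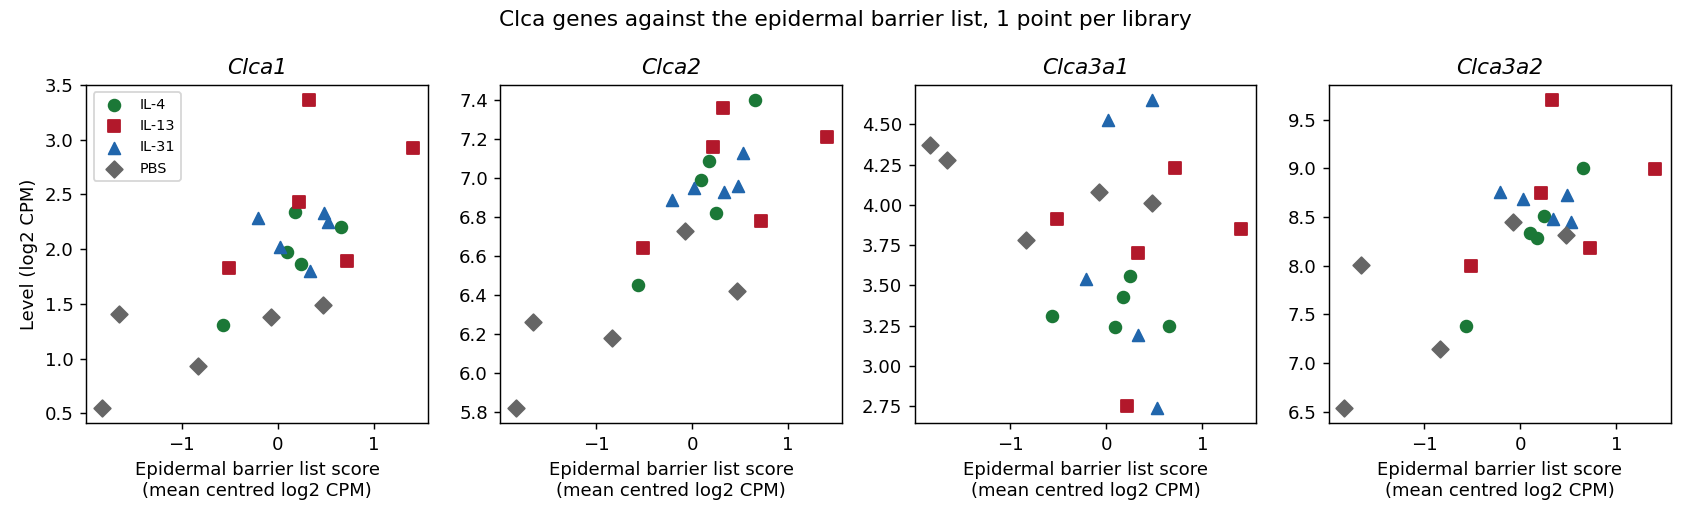
Log2 CPM of each Clca gene against the epidermal barrier list score (mean centred log2 CPM of 50 genes), 1 point per library. PBS libraries 1, 2 and 3 sit at the low end of the score (-0.83, -1.66 and -1.83) and hold the lowest Clca2 and Clca3a2 levels among PBS libraries, while IL-13 library 4 has the highest Clca1 (3.36) at a score of 0.33.

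Calcium-activated chloride channel genes were measured beside the family. Ano1, the channel that human CLCA1 regulates, rose by 0.36 ± 0.11 in IL-4 (log2 difference ± SE, limma adjusted p = 0.0321), 0.42 ± 0.11 in IL-13 (adjusted p = 0.0124) and 0.43 ± 0.11 in IL-31 (adjusted p = 0.0301). Its levels were 6.69 ± 0.20, 6.75 ± 0.12 and 6.76 ± 0.15 against 6.33 ± 0.23 log2 CPM in PBS (SD, n = 5 each). In the list of 20 anoctamin, bestrophin, Cftr and related genes, 15 were tested. Of these 3 rose and 2 fell in IL-4, 4 rose and 3 fell in IL-13 and 2 rose in IL-31, with medians of 0.15, 0.07 and 0.09. Of all tested genes 8.22% rose and 9.63% fell in IL-4, 9.94% and 9.8% in IL-13 and 5.18% and 1.2% in IL-31. Ano8 rose in all 3 comparisons (0.50, 0.59 and 0.58) and Ano9 in IL-4 and IL-13 (0.51 and 0.41) and both encode anoctamins. Ano5, an anoctamin of skeletal muscle, fell in IL-4 (-2.78) and IL-13 (-2.62), where the skeletal muscle share was also lower, and the part of muscle in this was not tested. Best3, a bestrophin, fell in the same 2 comparisons (-1.32 and -1.43), and Ano4 fell in IL-13 (-1.43). Both were weakly expressed, so these folds rest on few reads. Best3 averaged -1.03 log2 CPM in IL-4, -1.14 in IL-13 and 0.29 in PBS libraries. Ano4 averaged -1.0 in IL-13 and 0.43 in PBS libraries. Slc26a9, an epithelial chloride transporter named here after its values were seen, was the remaining gene to rise in IL-13 (1.00 ± 0.32, adjusted p = 0.0343). Best2 averaged 0.85 log2 CPM in IL-4, 0.63 in IL-13, -0.37 in IL-31 and 0.60 in PBS libraries and passed no test. Against PBS libraries 4 and 5 alone no gene of the list was called higher, and 2, 0 and 0 were lower. Of 17 tested voltage-gated, volume-regulated and intracellular chloride channel genes, 4 rose and 2 fell in IL-4, 2 and 2 in IL-13 and 2 and 0 in IL-31, to be read against the same shares. Against PBS libraries 4 and 5 alone 1 rose and 1 fell in IL-4 and in IL-13 and none was called in IL-31. Named after their values were seen, Lrrc8e, a volume-regulated anion channel subunit, rose by 0.80, 0.79 and 0.60, and Clic3 rose by 1.00, 1.11 and 1.20 in IL-4, IL-13 and IL-31. Clcn1, the chloride channel of skeletal muscle, fell in IL-4 (-2.16) and IL-13 (-2.60), as did Clic5 (-1.47 and -1.80), and Lrrc8b (0.66) and Lrrc8d (0.47) rose in IL-4.

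Few goblet cell genes could be followed. Of 20 listed mucous cell genes 6 had a row and were tested, and the defining markers Muc5ac, Muc5b, Spdef and Agr2 were not analysed here. Fcgbp, the remaining defining gene, averaged 10.23 log2 CPM in IL-4, 10.46 in IL-13 and 10.46 in IL-31, against 9.97 in PBS, and passed no test (adjusted p = 0.386, 0.0835 and 0.136). Capn9, a calpain of mucosal epithelium, rose by 1.03 ± 0.33 in IL-13 (adjusted p = 0.0352), and Creb3l1, a secretory pathway transcription factor, fell by 0.67 ± 0.15 in IL-4 (adjusted p = 0.00611). With PBS libraries 1, 2 and 3 left out no mucous cell gene was called in IL-13, and 1 was lower in IL-4. Of 20 tested IL-4, IL-13 and STAT6 response genes 4 rose and 1 fell in IL-4, 3 rose and 1 fell in IL-13, and 1 rose in IL-31, with medians of -0.19, 0.11 and 0.11. These counts are near the background, since 17.8%, 19.7% and 6.38% of all tested genes were called in either direction. Atp12a, the nongastric proton pump, which like Clca1 is an IL-13 target in airway epithelium, rose by 1.37 ± 0.40 in IL-4 (adjusted p = 0.0242) and 1.66 ± 0.40 in IL-13 (adjusted p = 0.00822), and stood 1.30 ± 0.40 above PBS in IL-31 (adjusted p = 0.0585). Serpinb2, a serpin that IL-13 induces in airway epithelium, rose by 0.55 in IL-4 (adjusted p = 0.021) and stood 0.31 and 0.34 above PBS in IL-13 and IL-31 (adjusted p = 0.171 and 0.204). Cdh1, which encodes E-cadherin, rose in all 3 comparisons (0.69, 0.75 and 0.69), and Tgm2, a transglutaminase, fell in IL-4 (-1.75) and IL-13 (-1.46). Retnla, a STAT6 target of alternatively activated macrophages, rose by 3.83 ± 0.86 in IL-4 (adjusted p = 0.00583) and by 2.56 ± 0.86 in IL-13 (adjusted p = 0.0412), with means of 3.02 log2 CPM after IL-4, 1.76 after IL-13, -0.60 after IL-31 and -0.80 after PBS. Its IL-31 difference was 0.21 (adjusted p = 0.9), whereas Clca1 in IL-31 stood 0.98 above PBS. Chil3, Arg1 and Ccl24 passed no test. Leaving out PBS libraries 1, 2 and 3, the STAT6 list had 1 gene higher and 2 lower in IL-4 and none called in IL-13 or IL-31.

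Targets of p53, listed because human CLCA2 is one, had calls in both directions: of 19 tested, 1 rose and 3 fell in IL-4, 2 rose and 4 fell in IL-13 and 2 rose and 2 fell in IL-31, with medians of -0.09, -0.04 and 0.02. All tested genes were called at 17.8%, 19.7% and 6.38%, and against PBS libraries 4 and 5 alone 1, 1 and 0 of the p53 targets were called, all lower. The calls, named after their values were seen, were Perp, a desmosomal p53 target, which rose in all 3 comparisons (0.85, 0.97 and 0.91), Zmat3, which rose in IL-13 (0.65) and IL-31 (0.69), and the apoptosis genes Fas (-0.57, -0.58 and -0.58) and Bax (-0.41, -0.43 and -0.47), which fell in all 3. Ccng1 fell in IL-4 (-0.81) and IL-13 (-0.67), and Mdm2 fell in IL-13 (-0.19). Genes beside the family on chromosome 3 passed no test. Sh3glb1, which ends before Clca3a1 begins, differed from PBS by -0.17 in IL-4, -0.15 in IL-13 and 0.02 in IL-31 (log2). Odf2l, on the far side of Clca2, differed by -0.02, -0.07 and -0.18 in the same order. Selenof, before Sh3glb1, differed by -0.13, 0.03 and 0.01. Col24a1, beyond Odf2l, was not flat, at -0.45, -0.89 and -0.36 (limma adjusted p = 0.427, 0.087 and 0.546).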

How the data were processed

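Per the labels' protocols, RNA of ear pinnae came from a Qiagen RNeasy kit and libraries from a NEBNext Ultra II kit. Expression was deposited as a single table of log2 CPM for all 20 libraries. The submitters' processing notes name GRCm38 and edgeR (no version) for the authors' processing. Aligner, counter, strandedness and read length are not stated in those sources. The lowest value, -2.684, is shared by all 20 libraries and equals an offset of 0.1556 CPM, so folds of weakly expressed genes come out too small. Between 79.3 and 86.8% of the low values of a library fell on multiples of a common step (tolerance 0.02 reads). That step gave the effective library sizes, and 3 reads equal 0.126 to 0.491 CPM. Because the rest were not whole, no count test was run.

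Symbols and coordinates came from GENCODE M21, which matched 16644 of 16669 identifiers. The filter kept genes reaching a log2 value of 0 in 5 or more libraries. One limma model with 4 groups was fitted to the log2 values as deposited (lmFit, contrasts, eBayes with trend; limma 3.58.1, R 4.3.3), after a test on simulated data. Tests were two-sided, and calls need an adjusted p (Benjamini-Hochberg over all genes tested in the comparison) under 0.05. Sequences were compared with python 3.11.15 and biopython 1.88. The members, gene lists and alternatives were chosen with earlier results of these data known. Genes named as like a member are the 6 of highest Pearson correlation with it, leaving out predicted genes, clone names and pseudogenes; from the mucous cell, STAT6 and anoctamin lists, up to 6 called genes of smallest adjusted p per comparison and the defining markers are named, and defining markers of the others where they bear on a result.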

Additional observations from a re-analysis of the deposited data

Results flagged for a closer look

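Among 16 sets of 5 libraries (4 genes in 4 groups), 1 held a library far from the others. IL-31 library 3 had 7.13 log2 CPM of Clca2, where the other IL-31 libraries had 6.89 to 6.96, and its gap to the nearest took up more than 0.71 of the group's range. About 1 in 20 such sets is marked by chance. Without that library the Clca2 difference between IL-31 and PBS was 0.65 (limma adjusted p = 0.0737).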

How the results depend on the processing

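For 4 members and 6 comparisons, the offset (log2(CPM + 1) or log2(CPM + 0.5)), no filter and a stricter filter changed no direction and no call. Without PBS libraries 1, 2 and 3, Clca2 lost its calls in all 3 comparisons with PBS (0.38, 0.46 and 0.40), Clca3a2 lost its call in IL-13 (0.34), and Clca3a2 in IL-4 turned to -0.08. With the epidermal barrier score as a covariate Clca2 was at 0.41, 0.40 and 0.40 and Clca3a2 in IL-13 at 0.36, none of which passed; Clca2 for IL-13 minus IL-4 turned to -0.01 and for IL-4 minus IL-31 to 0.01, and Clca3a2 for IL-13 minus IL-31 to -0.01. With only the 10 libraries compared, the calls of Clca2 in IL-4 (0.67) and IL-31 (0.69) and of Clca3a2 in IL-13 (1.03) were lost and that of Clca3a1 in IL-4 (-0.75) was gained. After quantile normalization Clca3a2 in IL-13 (0.96) was not called and Clca3a1 for IL-13 minus IL-31 turned to 0.03; without the eBayes trend Clca3a2 in IL-13 (1.03) was not called. The causes were not tested.

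Leaving out 1 library at a time, the differences from PBS ranged over 0.63 to 0.94 (IL-4), 1.11 to 1.49 (IL-13) and 0.83 to 1.07 (IL-31) for Clca1, 0.55 to 0.80, 0.64 to 0.86 and 0.58 to 0.81 for Clca2, -0.83 to -0.68, -0.55 to -0.18 and -0.60 to -0.12 for Clca3a1, and 0.32 to 0.84, 0.74 to 1.22 and 0.64 to 1.12 for Clca3a2. Between cytokines, signs turned for Clca2 (IL-13 minus IL-4, -0.04 to 0.20; IL-13 minus IL-31, -0.03 to 0.16; IL-4 minus IL-31, -0.14 to 0.10), Clca3a1 (IL-13 minus IL-31, -0.29 to 0.19) and Clca3a2 (IL-13 minus IL-31, -0.14 to 0.28).

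The groups share replicate numbers, and 10 of 30 same-numbered pairs correlated above 0.1 in their deviations from group means (-0.236 to 0.486). The highest values were for library 2, at 0.402 (IL-13 with IL-31), 0.486 (IL-13 with PBS) and 0.452 (IL-31 with PBS). Pairs of unlike number were not compared, so whether the numbers pair the libraries was not tested. With the number as a block, Clca3a2 in IL-31 passed (0.93, adjusted p = 0.0482) and no other member call changed. Of 24 endothelial genes 14, 12 and 0 were then lower in IL-4, IL-13 and IL-31.

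The number of genes called was 2938 in IL-4, 3250 in IL-13 and 1050 in IL-31. It was 1269, 1134 and 0 with only the 10 libraries compared, 1200, 385 and 0 without PBS libraries 1, 2 and 3, and 2517, 794 and 0 with the barrier score as a covariate. Single libraries moved it by over 1.5 times: to 1956 in IL-4 without IL-4 library 5 and 1885 without PBS library 2, to 2022 in IL-13 without IL-13 library 3 and 1995 without PBS library 2, and in IL-31 to 498, 0, 405 and 0 without IL-31 libraries 1, 3, 4 and 5 and to 26, 0, 1, 1885 and 3029 without PBS libraries 1 to 5. In IL-4 minus IL-31, 3 genes were called with only the 10 libraries compared and 2 with the block.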
